A study of Mus musculus with 6 samples.

Results

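Hyaluronan synthesis and binding genes were examined in caudal arteries of mice with and without Notch3, as 9 of 18193 genes on the array, by 25 of its 45037 probe sets. Probe sets were taken where the platform annotation named 1 gene and that gene was Has1, Has2, Cd44, Lyve1, Vcan, Hapln1, Susd5, Tnfaip6 or Hyal2. Hyal1, the remaining gene of the 10 asked for, had 2 probe sets, both annotated to Naa80 as well, and no value is given for it. The genes were chosen by family and from the genotype comparison itself, in which Susd5 was already known to be much lower in Notch3-/- arteries. Differences of these genes between genotypes are therefore descriptions without a p-value, and counts of members past a threshold support nothing.

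The caudal artery is the main artery of the tail. The Notch3+/+ group was 3 RNA pools from 4, 3 and 3 mice, and the Notch3-/- group was 3 RNA pools from 4 mice each, all at 4 weeks of age (postnatal day 28). The labels name each pool a biological replicate and give neither the targeted allele nor the strain, the sex or any other allele, treatment or batch. Each pool was hybridised to 1 Affymetrix MOE430 2.0 array, and every level below is a log2 expression value after RMA, a method that corrects background, equalises the arrays and summarises the probes of a set.

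Hyaluronan is a long sugar polymer that synthases of the cell membrane extrude directly into the extracellular space, from nucleotide sugars made in the cytosol. Cells hold it through receptors such as CD44 and LYVE-1, and in the matrix it is organised by proteins with a link module, among them the proteoglycan versican, link proteins and TSG-6, before hyaluronidases cut it. In arteries, a matrix rich in hyaluronan and versican lies around smooth muscle cells and is known to expand when a vessel is injured or remodelled.

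Across these genes, Susd5 was lower in Notch3-/- arteries, while the receptor genes Cd44 and Lyve1, versican and Tnfaip6 were higher on their brightest probe sets. Susd5 was 3.19-fold to 3.98-fold lower by its 2 probe sets, the versican gene Vcan was 1.57-fold higher and Cd44 1.53-fold higher. The synthase gene Has1 and the hyaluronidase gene Hyal2 differed by 0.08 and -0.07 (log2, Notch3-/- minus Notch3+/+), within the spread of their pools. The link protein gene Hapln1 was near the bottom of the scale in every pool. The median difference of the 9 genes by their brightest probe sets was 0.44, with Hapln1 below the level filter. Over the 12732 genes above that filter the median was -0.00. Of the 9 genes, 7 were above 0, Hapln1 (0.04) and Has1 (0.08) among them, beside 6208 of the 12732. Without Notch3+/+ replicate 3 the median of the 9 genes was 0.14.

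Signal over the whole array set the frame for these values. The 6 arrays had medians of 4.50 to 4.57 and had pairwise correlations of 0.990 to 0.996 over all probe sets, as a description. Notch3-/- replicate 2 deviated most from its group, by a mean of 0.140 per probe set, where the other 5 deviated by 0.071 to 0.116; without it the median difference of the 9 genes was 0.39. The targeted gene, Notch3, read 9.94, 9.95 and 10.09 in Notch3+/+ and 6.51, 6.44 and 5.87 in Notch3-/- pools on its brighter probe set (adjusted p = 0.000529, limma), so each pool carried the transcript level of its label. Arterial smooth muscle markers were bright in all 6 pools, with a list mean of 10.98 to 11.33 over 6 genes. A filter removed probe sets whose mean over the 6 arrays was below the 40th percentile (3.82), which kept 27027 of all probe sets and 15 of the 25 for these genes.

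**Figure D1:**
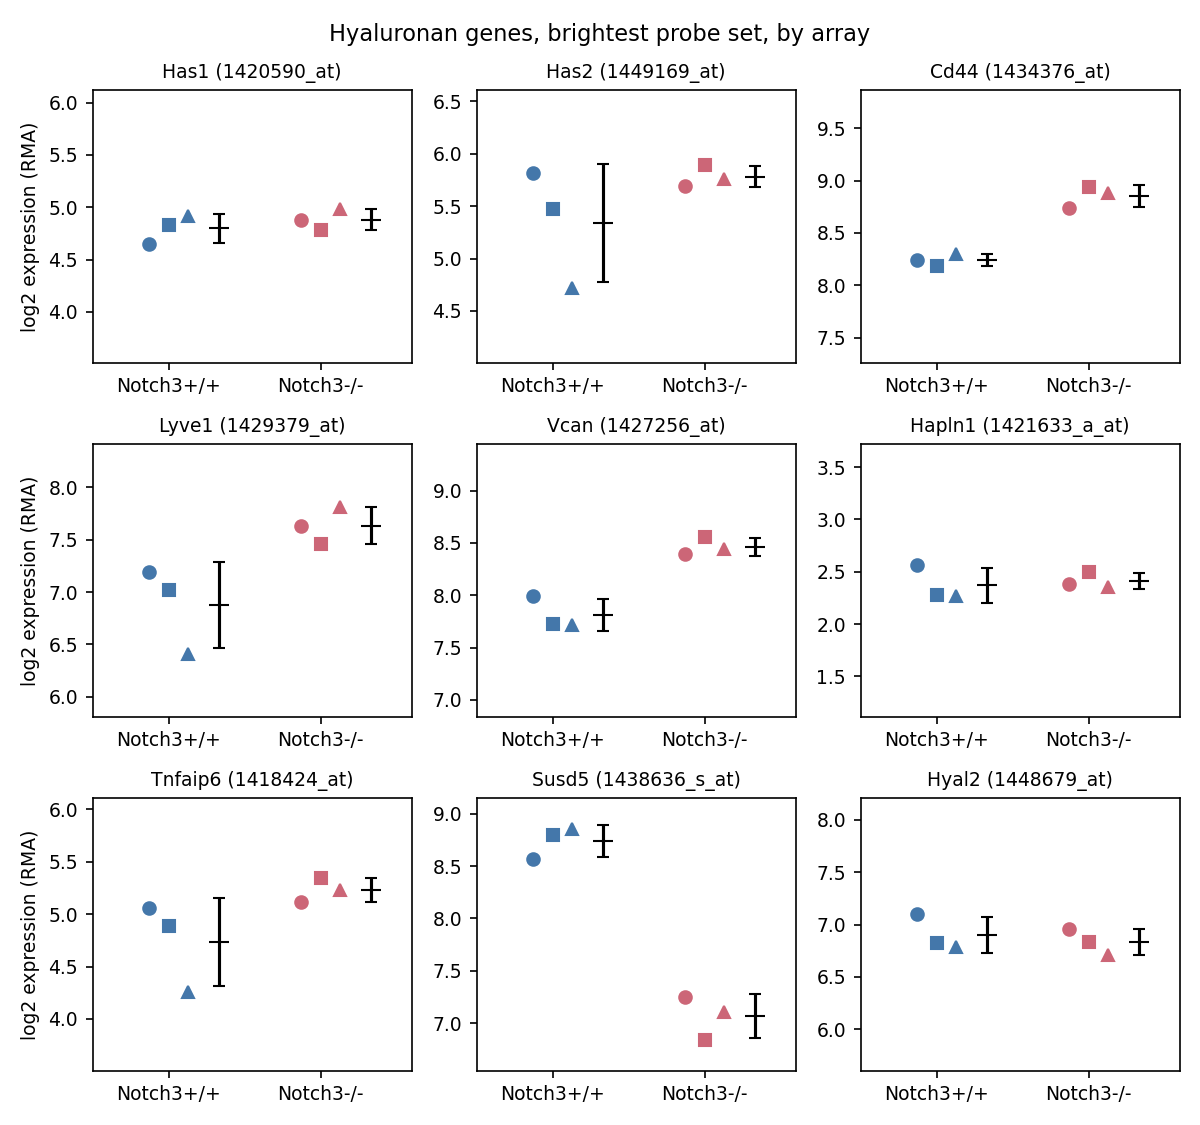
Level of each gene by its brightest probe set (log2 after RMA, every panel spanning the same range) in 3 Notch3+/+ pools (blue) and 3 Notch3-/- pools (red), with circle, square and triangle for replicates 1, 2 and 3 and black bars for the mean and SD. Susd5 lies between 6.84 and 7.25 in Notch3-/- pools, below 8.57 to 8.85 in Notch3+/+ pools, and Has2, Tnfaip6 and Lyve1 share a low Notch3+/+ replicate 3.

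Susd5 encodes a predicted membrane protein with a sushi domain and a link module, the fold by which CD44, LYVE-1, versican and TSG-6 hold hyaluronan. Its brighter probe set (1438636_s_at) read 8.57, 8.80 and 8.85 in the Notch3+/+ pools and 7.25, 6.84 and 7.11 in the Notch3-/- pools. Its other probe set (1437387_at) read 7.48, 7.85 and 8.09 in the Notch3+/+ pools and 5.92, 5.89 and 5.63 in the Notch3-/- pools. On both probe sets every Notch3-/- pool lay below every Notch3+/+ pool, and the gap between the groups was wider than the range within either. The means were 8.74 ± 0.15 and 7.07 ± 0.21 (SD, n = 3 each) on the first, a difference of -1.67 (SE 0.13), and 7.81 ± 0.31 and 5.81 ± 0.16 on the second, a difference of -1.99 (SE 0.16). The suffix of the brighter probe set marks a set whose probes may also match other transcripts, and the probe set without that suffix showed the larger difference. With any 1 array left out, the differences ran from -1.77 to -1.56 and from -2.16 to -1.85.

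In all, 3 of the 15 probe sets above the filter passed an adjusted p of 0.05 in limma: both of Susd5, lower in Notch3-/- pools, and the brightest of Cd44, higher. Over the whole array 0.252% of probe sets passed (68 of 27027), and 0.322% of genes by their brightest probe set (41 of 12732). Since the genes were taken from this same contrast, nothing is read from that count. Leaving out Notch3+/+ replicate 2 gave a count of 0, leaving out Notch3-/- replicate 3 gave 1 (Susd5), and leaving out any one of the other 4 arrays gave 2, both Susd5. The probe sets just inside and just outside this threshold on adjusted p had similar log2 differences. These were 0.61 (SE 0.09) for the brightest Cd44 probe set, inside, and 0.65 (SE 0.10) for the brightest Vcan probe set, outside.

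Groups did not overlap for 8 of the 15 probe sets with Notch3-/- higher and for 2 with Notch3-/- lower. Over the array, 8.43% of tested probe sets separated with Notch3-/- higher and 7.75% with Notch3-/- lower. The 8 belonged to Cd44, Lyve1, Vcan and Tnfaip6 and the 2 to Susd5. The genes were taken with results of the genotype contrast known, so this too is given as a description.

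**Figure D2:**
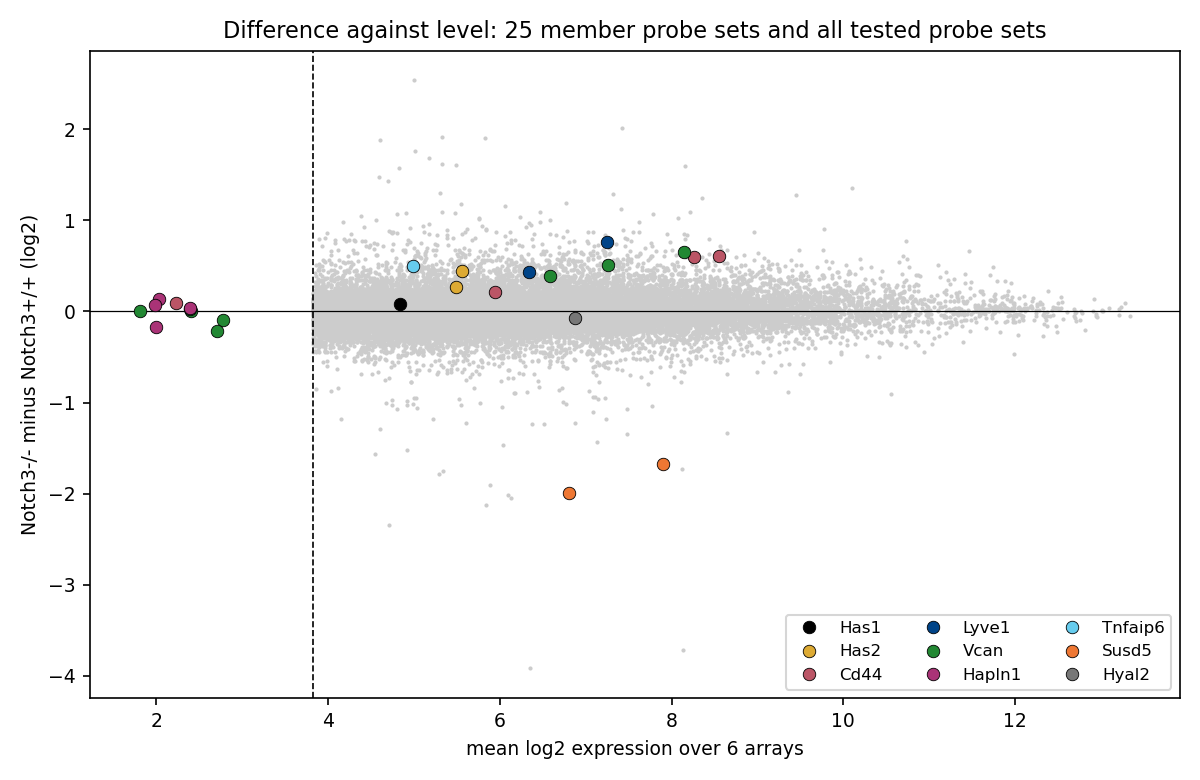
Difference between genotypes (Notch3-/- minus Notch3+/+, log2) against mean level over 6 arrays for the 25 probe sets of these genes (coloured by gene) and for all 27027 tested probe sets (grey), with the filter level of 3.82 dashed. The 2 Susd5 points lie at -1.67 and -1.99, the brighter Vcan, Cd44 and Lyve1 points between 0.39 and 0.76, and the 10 probe sets left of the dashed line between -0.21 and 0.14.

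Promoter sequences of Susd5, Cd44 and Vcan are shown because probe sets of Susd5 and Cd44 passed the threshold in opposite directions and Vcan lay just outside it. They are from RefSeq (GRCm38.p6), run from 250 bases before to 50 bases after the annotated start, and are written 5′ to 3′ on the strand of the gene. Capitals mark TGGGAA on either strand, the core of the site bound by RBPJ, the DNA-binding partner of Notch. The windows are chr9:114057104-114057403 (plus strand) for Susd5, chr2:102901616-102901915 (minus strand) for Cd44 and chr13:89742463-89742762 (minus strand) for Vcan.

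Susd5: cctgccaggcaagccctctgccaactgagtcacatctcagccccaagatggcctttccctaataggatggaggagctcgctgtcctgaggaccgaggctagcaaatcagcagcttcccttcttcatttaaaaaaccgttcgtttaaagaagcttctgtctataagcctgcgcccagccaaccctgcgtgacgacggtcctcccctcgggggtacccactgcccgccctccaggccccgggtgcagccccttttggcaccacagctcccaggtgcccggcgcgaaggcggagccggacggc

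Cd44: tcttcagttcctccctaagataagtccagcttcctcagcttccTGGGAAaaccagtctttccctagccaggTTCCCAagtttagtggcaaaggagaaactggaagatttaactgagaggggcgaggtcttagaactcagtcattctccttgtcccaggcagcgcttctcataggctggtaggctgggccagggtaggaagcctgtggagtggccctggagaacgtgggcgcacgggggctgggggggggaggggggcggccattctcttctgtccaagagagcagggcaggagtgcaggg

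Vcan: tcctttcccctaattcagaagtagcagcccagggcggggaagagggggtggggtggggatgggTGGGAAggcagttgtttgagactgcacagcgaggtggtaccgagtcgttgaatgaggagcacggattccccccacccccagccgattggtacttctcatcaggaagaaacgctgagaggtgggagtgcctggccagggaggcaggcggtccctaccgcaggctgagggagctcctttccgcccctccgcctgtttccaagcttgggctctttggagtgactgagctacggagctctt

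TGGGAA was not found in the Susd5 window, occurred at 207 and, on the opposite strand, at 179 bases before the start in Cd44, and occurred 187 bases before the start in Vcan. It was in 2 of the 8 promoter windows found for these genes, those of Cd44 and Vcan. Of 32851 such promoter windows in the table, 25.6% held it. The E-box CACGTG, a palindrome that does not overlap TGGGAA and is bound by several helix-loop-helix factors, was in 0 of the 8 promoter windows found for these genes and in 7.15% of all windows. The 8 windows were those of Has1, Cd44, Vcan, Hapln1, Susd5, Tnfaip6, Hyal1 and Hyal2, and Has2 and Lyve1 had no entry. These are matches of letters in a short window and say nothing of binding. The G and C content was 61.7% in Susd5, 58.0% in Cd44 and 61.0% in Vcan, beside a median of 52.7% over all windows of the table.

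The synthases make the polymer. Has1 had 1 probe set, which read 4.65, 4.83 and 4.92 in Notch3+/+ pools and 4.88, 4.78 and 4.98 in Notch3-/- pools. The groups overlapped and the difference was 0.08 (SE 0.10). Has2, the synthase needed for heart and vessel development in the embryo, read 5.82, 5.47 and 4.72 in Notch3+/+ pools and 5.69, 5.89 and 5.76 in Notch3-/- pools on its brighter probe set. Here too the groups overlapped, with a difference of 0.44 (SE 0.25) that rested on the low Notch3+/+ replicate 3. Without that pool the difference was 0.14, and on the other Has2 probe set it went from 0.27 to -0.06.

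Genes that supply the nucleotide sugars were compared from a list of other pathway genes. Of 8 such genes and synthases, 7 were above the filter, all 7 had a difference above 0, and 0 passed in limma. An unadjusted p under 0.05 was found for 3 of these genes by their brightest probe sets, beside 11.4% of all tested probe sets, a different unit. Gfpt2, which encodes an enzyme that commits fructose 6-phosphate to the hexosamine pathway, read 7.11, 6.92 and 6.59 in Notch3+/+ pools and 7.12, 7.20 and 7.49 in Notch3-/- pools. The groups lay close but did not overlap, and the difference was 0.40 (SE 0.15, adjusted p = 0.404, limma). Ugdh, which makes the UDP-glucuronic acid of the polymer, read 8.49, 8.33 and 8.03 against 8.55, 8.62 and 8.68, a difference of 0.33 (adjusted p = 0.386, limma). Gfpt1, the other enzyme of the Gfpt2 step, differed by 0.29 on its brightest probe set (adjusted p = 0.404, limma), but its 6 probe sets ran from -0.11 to 0.29. Ugp2, which makes UDP-glucose, differed by 0.18 (adjusted p = 0.493, limma), with 5 probe sets from -0.08 to 0.22. In Ugdh, Gfpt1 and Gfpt2, Notch3+/+ replicate 3 was the lowest pool, as it was for Has2. The synthase gene Has3 lay below the filter, at 2.71 to 3.25 with overlapping groups.

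Receptors anchor hyaluronan to cells. Cd44 encodes the main hyaluronan receptor of leukocytes, fibroblasts and smooth muscle cells. Its brightest probe set (1434376_at) read 8.24, 8.18 and 8.30 in Notch3+/+ pools and 8.74, 8.94 and 8.88 in Notch3-/- pools. All Notch3-/- pools were higher, by 0.61 on average (SE 0.09), from 8.24 ± 0.06 to 8.85 ± 0.10 (SD, n = 3 each). A second probe set (1423760_at) read 7.95, 7.89 and 8.03 against 8.33, 8.89 and 8.45, again without overlap, a difference of 0.60 (SE 0.15). Another (1452483_a_at), which by its suffix represents several transcripts of the gene, read 6.03, 5.83 and 5.65 against 6.29, 5.44 and 6.42. There Notch3-/- replicate 2 was the lowest of all 6 pools although it was the highest on the first 2 probe sets. The difference was 0.21 (SE 0.25), and 0.03 to 0.52 with any 1 array left out, highest without that pool. Without the same pool the difference of the second probe set fell from 0.60 to 0.43. The fourth Cd44 probe set lay below the filter, with a difference of 0.09. Which Cd44 splice forms each probe set covers is not given in the sources used here.

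Lyve1 encodes the hyaluronan receptor of lymphatic endothelium, which macrophages along arteries also carry. Its brighter probe set read 7.19, 7.02 and 6.41 in Notch3+/+ pools and 7.63, 7.46 and 7.81 in Notch3-/- pools. The difference was 0.76 (SE 0.20), the largest above 0 among these genes, from 6.87 ± 0.41 to 7.63 ± 0.18 (SD, n = 3 each). The other probe set read 6.29, 6.29 and 5.79 against 6.44, 6.48 and 6.74, a difference of 0.43 (SE 0.16). Both sets separated the genotypes and both had their lowest value in Notch3+/+ replicate 3, without which the differences were 0.53 and 0.26.

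Markers of the cell types known to carry Lyve1 were read in the same pools. All 8 macrophage markers (Adgre1, Csf1r, Cd68, C1qa, C1qb, C1qc, Cd163 and Mrc1) had a difference above 0, with a median of 0.45, and 0 passed in limma while 4 had an unadjusted p under 0.05. Their levels, summed on the linear scale, were 1259 to 1996 in the wild-type pools and 1933 to 2589 without Notch3, and the list means overlapped between genotypes (6.69 to 7.39 against 7.28 to 7.78), lowest in Notch3+/+ replicate 3, as for Lyve1. Of the lymphatic endothelial markers, 4 of 5 measured had a difference above 0 on their brightest probe set, from 0.02 for Reln to 0.64 for Mmrn1. Between their 2 probe sets Mmrn1 (-0.04 to 0.64), Reln (-0.03 to 0.02) and Flt4 (-0.01 to 0.12) changed sign. The lymphatic sum was 285 to 307 in wild-type pools and 365 to 411 in those without Notch3. In that list 0 passed in limma while 2 had an unadjusted p under 0.05. Prox1, which defines that lineage, read 2.04 to 2.23 in all pools, below the filter, and Pdpn, which fibroblasts also express, read 7.20 to 7.37 against 7.74 to 7.98. Pdpn made most of the gap in that sum, at 147 to 165 against 214 to 252, while the other 4 genes summed to 137 to 141 against 149 to 159 and each overlapped between genotypes. The part of these cells in the Lyve1 and Cd44 values was not tested. In whole arteries a change in the number of cells of a type and a change of RNA per cell cannot be told apart.

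**Figure D3:**
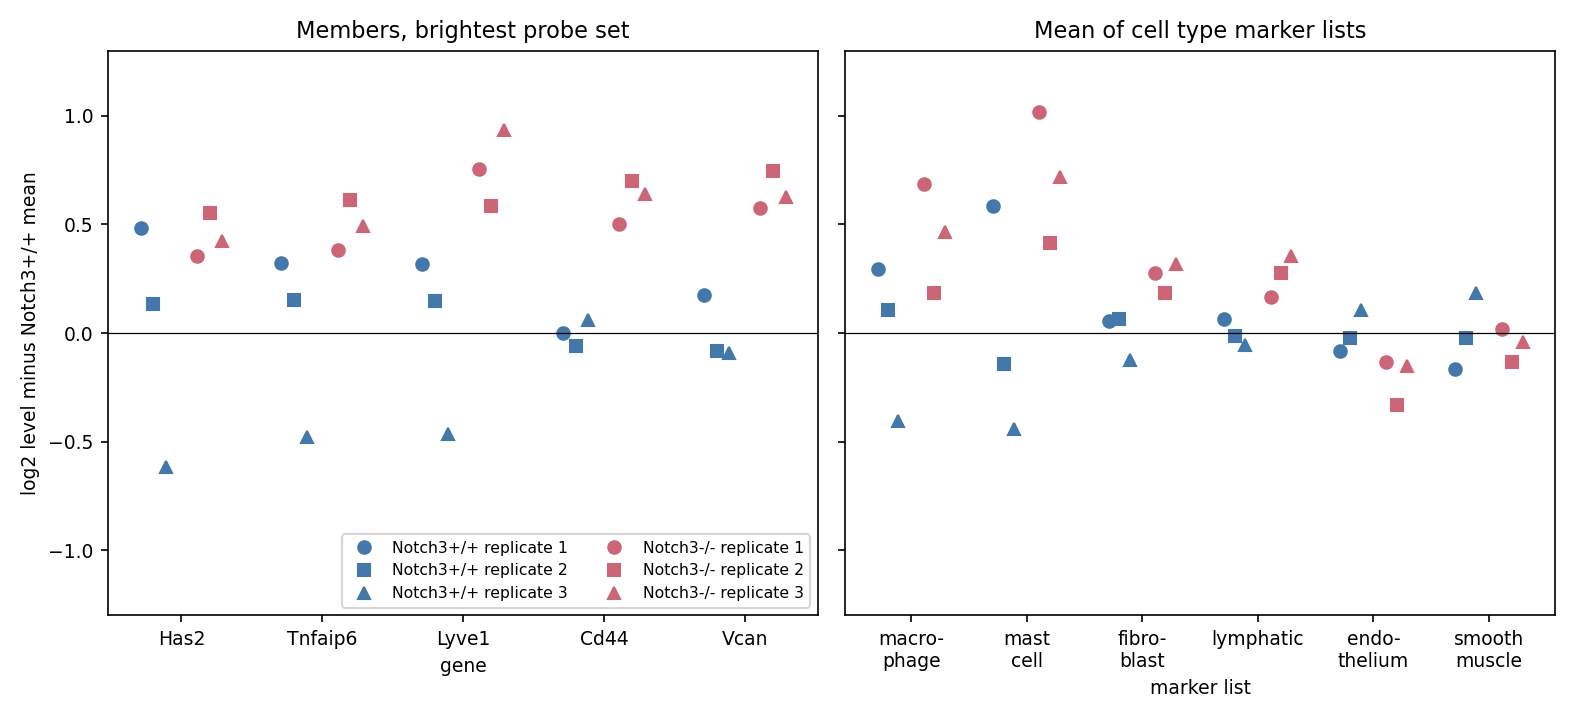
Level in each pool minus the Notch3+/+ mean (log2) for 5 of these genes by their brightest probe set (left) and for the mean of 6 cell type marker lists (right), with Notch3+/+ pools in blue, Notch3-/- pools in red and 1 symbol for each replicate number. Has2, Tnfaip6 and Lyve1 and the macrophage, mast cell, fibroblast and lymphatic lists are lowest in Notch3+/+ replicate 3. The smooth muscle and endothelium lists are highest in that pool. Cd44 varies little among Notch3+/+ pools (8.18 to 8.30).

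Vcan encodes versican, the large proteoglycan that binds hyaluronan through its link modules. Its brightest probe set (1427256_at) read 7.99, 7.73 and 7.72 in Notch3+/+ pools and 8.39, 8.56 and 8.44 in Notch3-/- pools. The other 2 above the filter read 7.28, 6.93 and 6.81 against 7.60, 7.48 and 7.46, and 6.60, 6.33 and 6.22 against 6.85, 6.68 and 6.80. On all 3 every Notch3-/- pool was higher, with differences of 0.65 (SE 0.10), 0.51 (SE 0.13) and 0.39 (SE 0.11). The Notch3-/- pools were close together, with SDs of 0.08 to 0.09 on these sets. The other 5 Vcan probe sets lay below the filter, between 1.66 and 3.07, with differences of -0.21 to 0.03. Averaged over all 8 probe sets the Vcan difference was 0.16. Versican has splice forms that differ in their sugar attachment regions, and which form each probe set covers is not given in the sources used here.

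Fibroblasts of the outer arterial wall are a known source of versican, and their markers were read beside it. All 8 markers (Pdgfra, Dpt, Dcn, Lum, Pi16, Cd34, Mfap5 and Clec3b) had a difference above 0 (0.01 for Dcn and 0.04 for Lum at the low end), with a median of 0.18; the groups overlapped for 4 of them, and 1 passed: Dpt, the dermatopontin gene, which read 9.83 to 9.95 in wild-type pools and 10.39 to 10.54 in pools without Notch3 (adjusted p = 0.0499, limma). The summed level of the list was 16728 to 18010 in wild-type pools and 18900 to 20124 in pools without Notch3. Their part in the Vcan, Cd44 and Has2 values was not tested.

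Tnfaip6 encodes TSG-6, a secreted link-module protein that transfers heavy chains of inter-alpha-inhibitor onto hyaluronan and that inflammatory signals induce. It read 5.06, 4.89 and 4.26 in Notch3+/+ pools and 5.12, 5.35 and 5.23 in Notch3-/- pools. The groups lay close but did not overlap, and the difference was 0.50 (SE 0.20), or 0.26 without Notch3+/+ replicate 3. Of the 15 probe sets above the filter, 10 had their lowest Notch3+/+ value in that pool (all those of Has2, Lyve1, Vcan, Tnfaip6 and Hyal2, and 1 of Cd44), beside 34.4% of all tested probe sets. The other 5 (Has1, 2 of Cd44 and both of Susd5) had their highest Notch3+/+ value there. Mast cell markers, at a list mean of 7.29, 6.56 and 6.26 in Notch3+/+ and 7.72, 7.12 and 7.42 in Notch3-/- pools, were also lowest there. So were the list means of macrophage, fibroblast and lymphatic markers, while those of smooth muscle and endothelium were highest there. The part of these cell types in the Tnfaip6 and Has2 values was not tested.

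Hapln1 encodes the cartilage link protein, which locks versican or aggrecan onto hyaluronan, and it is the protein-coding neighbour of Vcan on the chromosome. All 4 of its probe sets lay below the filter, between 1.68 and 2.63, with differences of -0.17 to 0.14. No genotype difference was detectable at these levels, which are at the floor of the array and carry no detection call. Cartilage markers differed by a median of 0.04 over 6 genes, with Matn1 and Matn3 below the filter too.

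Among the other genes for receptors, link-module and binding proteins, values lay mostly on the other side of 0. Of 19 genes, 14 were above the filter and 13 of the 19 had a difference below 0; 0 passed in limma and 3 had an unadjusted p under 0.05. These 3 encode heavy chains of the inter-alpha-inhibitor family, the substrates or relatives of the substrates of TSG-6. Itih5 read 10.70, 10.93 and 10.94 in Notch3+/+ pools and 10.39, 10.48 and 10.61 in Notch3-/- pools. It was lower in every Notch3-/- pool, by 0.36 on average (SE 0.10, adjusted p = 0.264, limma), and its 3 probe sets gave differences of -0.41 to -0.36. Itih2 read 5.22, 5.30 and 5.14 against 4.49, 4.89 and 5.01, a difference of -0.42 (SE 0.14, adjusted p = 0.339, limma). Itih4, at 4.12, 3.85 and 4.57 against 3.70, 3.65 and 3.87, overlapped by 1 pool, with a difference of -0.44 (adjusted p = 0.413, limma). Its mean of 3.96 lay just above the filter of 3.82. Of the other Itih genes listed, Itih3 differed by -0.25 and Itih1, below the filter, by 0.09. Acan, which encodes the cartilage proteoglycan aggrecan, read 9.22, 8.13 and 7.75 against 8.64, 8.12 and 8.17 and spread more within genotypes than between them (difference -0.06, SE 0.35). The remaining link-module genes Stab1, Bcan, Hapln3 and Hapln4 differed by -0.23 to -0.11, and Stab2, Ncan and Hapln2 lay below the filter.

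**Figure D4:**
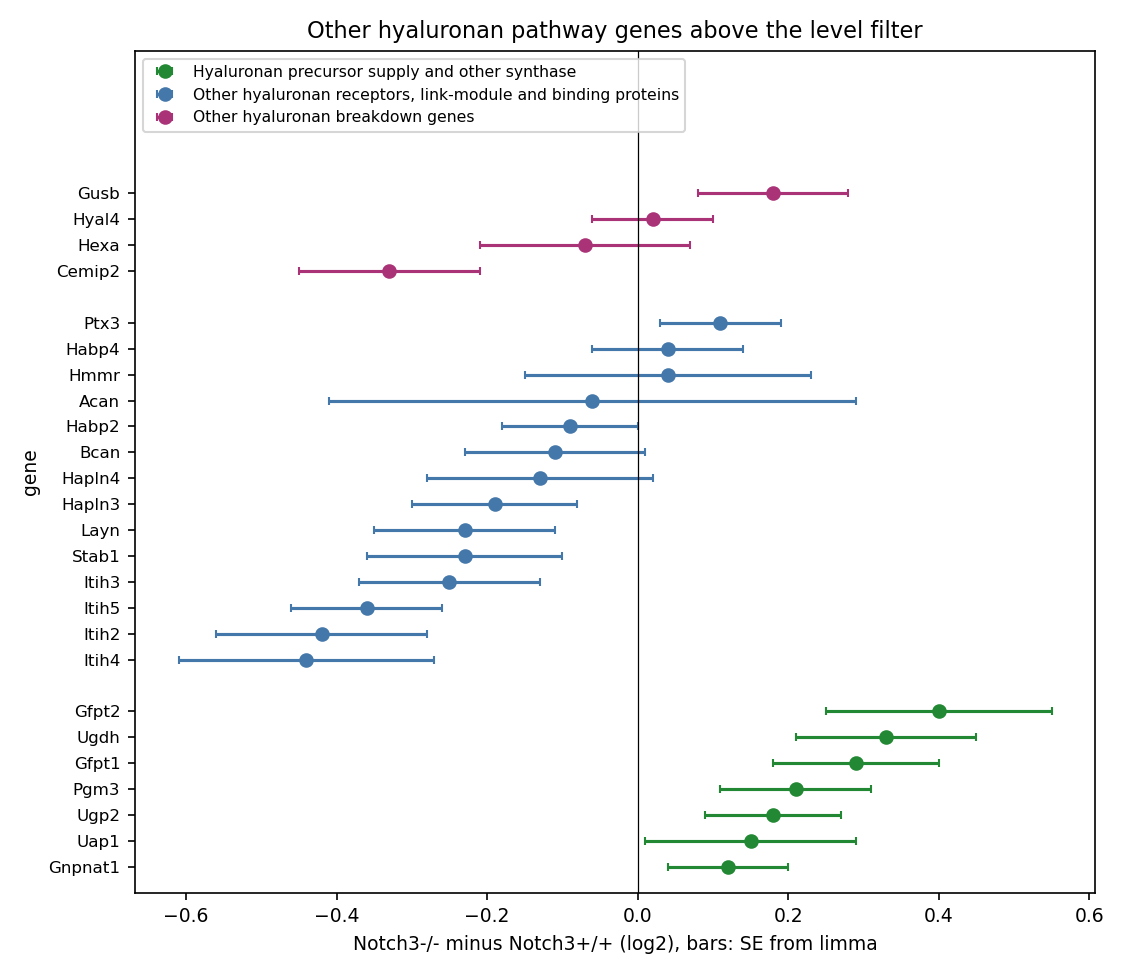
Difference between genotypes (log2, Notch3-/- minus Notch3+/+, bars SE from limma) for the 25 other hyaluronan pathway genes above the level filter, by their brightest probe set and grouped as precursor supply (green), receptors and binding proteins (blue) and breakdown (purple). All 7 precursor genes lie right of 0 (0.12 to 0.40), the inter-alpha-inhibitor genes lie left of 0 (-0.44 to -0.25), and 0 of the 25 passed an adjusted p of 0.05.

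Hyaluronidases and lysosomal enzymes break the polymer down. Hyal2 encodes a hyaluronidase anchored at the cell surface that cuts long chains into fragments, and it read 7.10, 6.82 and 6.79 in Notch3+/+ pools and 6.96, 6.83 and 6.71 in Notch3-/- pools. The groups overlapped and the difference was -0.07 (SE 0.11). Of the other breakdown genes, 4 were above the filter, 0 passed in limma and 1 had an unadjusted p under 0.05. That was Cemip2, a hyaluronan-degrading protein of the cell surface, at 7.97, 8.18 and 8.35 against 7.70, 7.84 and 7.98, a difference of -0.33 (SE 0.12, adjusted p = 0.387, limma). The groups overlapped narrowly, and its 3 probe sets disagreed, from -0.33 to 0.13. The lysosomal enzyme genes Gusb and Hexa differed by 0.18 (adjusted p = 0.551, limma) and -0.07 (adjusted p = 0.861, limma), and Hyal3, Spam1 and Cemip lay below the filter.

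Counted over all 3 lists of other pathway genes, 0 of the 25 tested passed in limma. An unadjusted p under 0.05 was found for 7 genes by their brightest probe sets. The share beside it, 11.4%, is over all tested probe sets rather than genes. The median difference of the 25 genes was -0.06, beside -0.00 over all genes tested.

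Genes with a pattern most like Susd5 were found by Pearson correlation with its brighter probe set over the 6 arrays. The 5 closest probe sets of other genes were those of Mbtd1 (0.995), Grip2 (0.994), Gtpbp2 (0.994), Mutyh (0.993) and Rab27b (0.992). All 5 share with Susd5 a lower level in every Notch3-/- pool, and over 6 arrays in 2 groups any gene with such a step correlates highly. They differ in the size of the step, which was -1.24 for Grip2 and -0.95 for Gtpbp2 but -0.27 to -0.20 for the other 3. Grip2 (adjusted p = 0.0038, limma) and Gtpbp2 (adjusted p = 0.0197, limma) passed. The other 3 did not (adjusted p of 0.252 to 0.364, limma), and Mbtd1, at a mean of 3.90, lay just above the filter.

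Other cell types of the tail were followed by the remaining marker lists. Endothelial markers had a median difference of -0.25 with 5 of 6 below 0, and arterial smooth muscle -0.01 with 3 above and 3 below. The smooth muscle genes ran from -0.58 for Smtn to 0.51 for Cnn1, both without overlap between the groups. Mast cells had a median of 0.76 with 7 of 7 above 0, skeletal muscle -0.21, adipocytes -0.18, Schwann cells and nerve -0.18 and keratinocytes 0.16. Tendon had 0.04, or 0.18 over its genes above the filter, which ran from -0.12 for Tnmd to 0.77 for Thbs4. In these lists 0 genes passed in limma, with 1 to 4 genes of each at an unadjusted p under 0.05. Their part in the values of the hyaluronan genes was not tested.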

How the data were processed

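The members and gene lists were chosen with earlier results of these data known. Per the labels' protocols, biotinylated cRNA was made from 2.5 µg of column-cleaned total RNA of each pool. The authors deposited RMA-processed log2 values (RMA is named in the submitters' processing notes, without a version given in the sources used here). Values of 1.38 to 13.38 show the scale. Differences of very dim and very bright probe sets can be compressed on this scale.

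Of 45101 probe sets, 64 controls were left out, 34945 had 1 gene symbol, 932 several and 9160 none; 34741 were matched by gene number to RefSeq (GRCm38.p6) for current symbols. Probe sets with a mean below the 40th percentile were removed. Genotypes were compared with limma 3.58.1 in R 4.3.3 (lmFit, eBayes, genotype as the only term, two-sided, Benjamini-Hochberg over 27027 probe sets), a fit also tested on simulated data. Each gene was represented by its probe set with the highest mean.

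Named were all members, from the 3 pathway lists the genes past the threshold, the 3 with the smallest unadjusted p and the 2 brightest of each, and the 5 probe sets most like Susd5; other genes complete a list or were named after their values were seen. Some genes of the pathway lists and the 12 marker lists are not reported here. Alternatives varied the filter, variance model, normalization, array weights, replicate block, threshold, gene summary and arrays included. The 3 arrays per genotype limit precision, and p-values measure the spread between these pools.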

Additional observations from a re-analysis of the deposited data

How the results depend on the processing

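Of 90 values of the 9 genes under 10 alternatives each, 88 moved by less than 1 SD between replicates. For the values with 1 array left out this could not have come out otherwise. Omitting 1 of 3 arrays always shifts a difference by less than that SD. The Has2 difference of 0.44 ran from 0.14 to 0.69 with 1 array left out, within its SD of 0.40. Cd44 and Vcan moved when all their probe sets were averaged, to 0.38 and 0.16. That average takes in dimmer probe sets, above and below the filter, with smaller differences. The median difference of the 9 genes was 0.16 under that average and 0.14 to 0.61 with 1 array left out. Array weights raised the probe sets called from 68 to 978, and those of the members from 3 to 8 (Cd44, Lyve1, Susd5 and Vcan); the cause was not tested. A threshold of 0.1 gave 142 and 4. Leaving out 1 array gave 13 to 62 called probe sets, and 0 to 2 of the members. Among the Notch3+/+ arrays, omitting replicate 2 left 13 and omitting replicate 3 left 23; among the Notch3-/- arrays, omitting replicate 3 left 17 and omitting replicate 2 left 37. Without the level filter, or with weights by mice pooled, 2 member probe sets passed, both of Susd5. The pathway genes called were 0 under all 16 alternatives run. Same-numbered pools correlated in their deviations at 0.242, 0.046 and -0.067. With Notch3-/- pools of another number, Notch3+/+ replicates 1, 2 and 3 gave -0.167 to -0.042, -0.174 to 0.143 and -0.119 to 0.140. Only for replicate 1 did the same-number value lie above that range. The numbers were not taken as pairs in the main fit. With the replicate block 57 probe sets were called, 2 of them members (Susd5), and 0 pathway genes. Dim probe sets, among them all of Hapln1, are limited by the floor of the array.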
